A study of Mus musculus with 16 samples.

Results

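The genes described here make, convert or break down prostaglandins, and they were followed in primary mouse astrocytes stimulated with lipopolysaccharide (LPS) and interferon gamma (IFNg). The set was chosen by symbol: Pla2g4a, Ptgs1, Ptgs2, Ptges, Ptges2, Ptges3, Ptgds, Ptgis, Ptgr1 and Hpgd. Of these 10 genes, 9 were among the 16707 genes of the deposited log2 CPM table. Ptgs1 was not in it, and its reads are given once below.

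Astrocytes were selected with ACSA2 beads from the brains of P6 pups of wild-type (WT, C57BL6J) or NLRX1-/- mice, cultured without serum, and given H2O vehicle or 500 ng/mL LPS with 10 ng/mL IFNg for 24 h. Each genotype had 4 litters, and each litter gave 1 vehicle well and 1 stimulated well, for 16 libraries of poly-A RNA. NLRX1 is a mitochondrial member of the NOD-like receptor family. The Nlrx1-/- mice were global knockouts, so the deletion was not limited to astrocytes. Each litter held 1 genotype.

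Prostaglandins are lipid signals made from arachidonic acid. A phospholipase frees the fatty acid from membranes, a cyclooxygenase turns it into the unstable prostaglandin H2, and a terminal synthase sets which prostaglandin comes out, for example prostaglandin E2 from a prostaglandin E synthase. Most of these enzymes are made all the time, whereas the cyclooxygenase Ptgs2 (COX-2) and the prostaglandin E synthase Ptges (mPGES-1) are known as the inducible pair of inflammation. Degradation starts with the dehydrogenase encoded by Hpgd.

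On GRCm39, GENCODE M39 places Pla2g4a at chr1:149705369-149837053 on the minus strand and Ptgs2 at chr1:149975194-149983978 on the plus strand, so these genes lie head to head with 138140 bases between them. Another 5 of the 10 genes, Ptgs1, Ptges, Ptges2, Ptgds and Ptgis, are on chromosome 2. Promoter windows were taken from RefSeq (table of build GRCm38.p6) and placed on GRCm39 by an exact match. They span 250 bases before the RefSeq start and 30 bases after it. Of the 10 genes, 9 had a window, with 2 windows for Pla2g4a, and Ptgis had none. The stretches below belong to the genes with the greatest rises, Ptgs2 and Ptges, and the greatest fall, Hpgd. They are written 5′ to 3′, and capitals mark matches to the motifs listed after them.
Ptgs2, chr1:149975702-149975731, plus strand: cgctgcggttcTTGCGCAActcactgaagc
Ptgs2, chr1:149975782-149975811, plus strand: agagtcaccactaCGTCACGTGgagtccgc
Ptges, chr2:30793356-30793559, minus strand: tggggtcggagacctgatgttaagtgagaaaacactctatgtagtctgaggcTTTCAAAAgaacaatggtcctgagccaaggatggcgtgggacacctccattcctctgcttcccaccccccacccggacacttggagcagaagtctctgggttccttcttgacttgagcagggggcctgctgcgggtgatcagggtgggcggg
Hpgd, chr8:56747337-56747542, plus strand: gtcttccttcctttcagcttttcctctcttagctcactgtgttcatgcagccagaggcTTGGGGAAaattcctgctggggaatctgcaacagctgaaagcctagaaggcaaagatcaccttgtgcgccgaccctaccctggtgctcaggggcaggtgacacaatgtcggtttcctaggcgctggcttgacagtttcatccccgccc

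The first Ptgs2 stretch starts 80 bases before the RefSeq start and holds a C/EBP-type match, and the second begins at that start and holds a partial CRE (cAMP response element) match that overlaps an E-box. Both lie downstream of the canonical GENCODE start of Ptgs2, at 149975488. The Ptges and Hpgd stretches end just before the start of their canonical GENCODE transcripts and hold 1 C/EBP-type match each. The 6 motifs searched on both strands of all 32851 windows were C/EBP (TTNNGNAA), the partial CRE (TGACG), the E-box (CACGTG), the gamma-activated site (TTCNNNGAA), the interferon-stimulated response element (GAAANNGAA) and the NF-κB consensus. The windows belonged to 27025 genes, and a gene was counted when any of its windows held the letters. The C/EBP letters were found for 7 of these 9 genes and for 42.7% of all genes. The partial CRE was found for 2 of 9 (Ptgs2 and Ptges3) against 22.1% of all genes, and the E-box for 2 of 9 (Ptgs2 and Ptges2) against 7.7%. NF-κB matches were found for 2 of 9 (Ptgds and Ptges3) against 9.0%, and the gamma-activated site and the interferon-stimulated element for 0 of 9, against 9.0% and 9.2%. These matches describe letters, not bound sites.

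The libraries held 27259420 to 43752903 reads assigned by Salmon, with a median of 35554625. Nlrx1 was lower in every Nlrx1-/- library than in any WT library: its level was 4.22 ± 0.15 log2 CPM in WT vehicle and 2.47 ± 0.53 in Nlrx1-/- vehicle (SD, n = 4 litters in each). By edgeR's quasi-likelihood test the log2 fold change was -1.70 in vehicle (adjusted p = 0.0505) and -2.19 in LPS+IFNg (adjusted p = 0.0029), with 76 to 312 reads still counted per Nlrx1-/- library. The deleted part of the gene is not given in the sources used here, so these reads could not be placed inside or outside it. Stimulation raised Irf1, an interferon target, by 5.81 on the log2 scale in WT and 5.59 in Nlrx1-/- cells, and Cxcl10, Gbp2 and Nos2 also rose in both genotypes, while Tnf and Il6 had too few reads to be tested. All 9 astrocyte markers were present, with a summed level of 2480 to 6150 TPM over the 16 libraries. Of 8 microglia markers, 7 stayed under 1 TPM in every library. Oligodendrocyte markers were present, at a sum of 147 to 830 TPM, of which Cnp alone stood at 143 to 449 TPM. Oligodendrocyte precursor markers summed to 268 to 695 TPM and ependymal markers to 47.8 to 217 TPM. In bulk RNA, fewer cells of a type and less RNA per cell cannot be told apart.

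Levels can be compared between genes only in TPM, which divides by transcript length. In WT vehicle libraries Ptges3 was highest at 209 ± 14.1 TPM, followed by Ptgds at 141 ± 36.9, Ptgr1 at 30.7 ± 2.83, Ptges2 at 20.5 ± 0.682 and Pla2g4a at 7.81 ± 0.965 (SD, n = 4). The ranges of these 5 genes did not overlap. Ptges (2.32 to 3.07 TPM) and Hpgd (0.451 to 3.07 TPM) overlapped, as did Hpgd, Ptgis (0.515 to 1.47 TPM) and Ptgs2 (0.0603 to 0.833 TPM). Ptgs1, the constitutive cyclooxygenase COX-1, had 2, 4, 20 and 30 reads in the WT vehicle libraries (0.053 to 0.558 TPM) and at most 10 in any other library. In Nlrx1-/- cells after stimulation Ptgs2 reached 5.28 ± 3.37 TPM, which overlapped Ptges at 8.09 ± 1.31 TPM, whereas Ptges3 stood at 304 ± 8.04 TPM. Ptges3 alone made up 40.6% to 68.0% of the summed TPM of the 10 genes in a library.

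**Figure D1:**
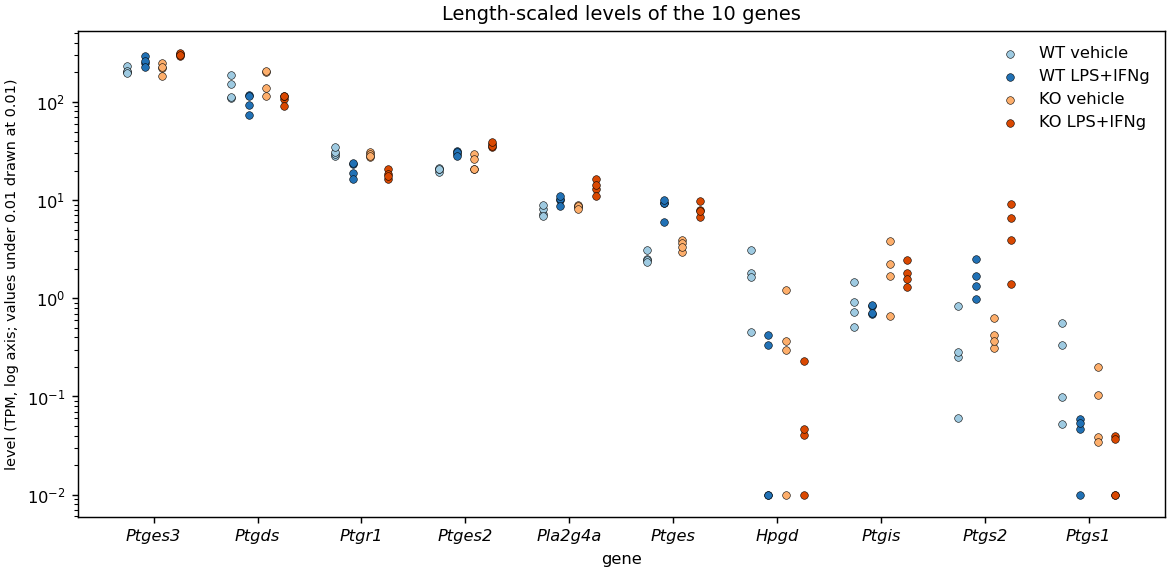
Level of each of the 10 genes in TPM (log axis, values under 0.01 drawn at 0.01) in the 16 libraries, 4 points per condition in color, with genes in the order of their WT vehicle means. Ptges3 and Ptgds lie at 73 to 313 TPM in all libraries, and both cyclooxygenases lie under 1 TPM in every vehicle library.

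The first question was how LPS+IFNg changed these genes within a litter. In WT astrocytes 5 of the 9 genes rose (Pla2g4a, Ptgs2, Ptges, Ptges2 and Ptges3) at an adjusted p under 0.05 by edgeR, where 24.3% of all 16070 genes tested rose. Another 2 of 9 fell (Hpgd and Ptgr1), where 19.8% of all genes fell. In Nlrx1-/- astrocytes the same 5 genes rose, against 25.6% of all genes, and 2 of 9 fell (Ptgds and Ptgr1), against 23.9%. Over the 9 genes the median log2 fold change was 0.52 in WT and 0.65 in Nlrx1-/- cells, beside medians over all genes of -0.01 and -0.03. The 5 genes that rose belong to arachidonate release, cyclooxygenation and prostaglandin E2 synthesis. Ptgr1 was called lower in both genotypes, Hpgd only in WT and Ptgds only in Nlrx1-/- cells. The 2 of 9 genes called lower in each genotype were near the share of all genes.

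Pla2g4a, the cytosolic phospholipase A2 that releases arachidonic acid, was at 3.08, 3.30, 3.03 and 3.43 log2 CPM in the WT vehicle libraries of litters 1 to 4, and at 3.76, 3.86, 3.63 and 3.92 after LPS+IFNg. In Nlrx1-/- litters 1 to 4 it was at 3.43, 3.43, 3.44 and 3.36 in vehicle and at 4.15, 4.57, 3.91 and 4.37 after stimulation. The stimulated libraries lay above all vehicle libraries of their genotype. The edgeR log2 fold change was 0.58 in WT (SE 0.11, adjusted p = 0.00161) and 0.83 in Nlrx1-/- cells (SE 0.11, adjusted p = 0.000125). The change per litter was tighter in WT, from 0.49 to 0.68, than in Nlrx1-/- cells, from 0.47 to 1.13, and these ranges overlapped.

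Ptgs2, the inducible cyclooxygenase, was counted in 47, 13, 24 and 4 reads in WT vehicle litters 1 to 4 and in 75, 174, 58 and 125 reads after stimulation. The corresponding levels were 0.59, -0.98, -0.84 and -2.61 log2 CPM in vehicle and 1.46, 2.44, 1.07 and 1.81 in LPS+IFNg. No stimulated WT library fell into the vehicle range, but WT litter 1 began higher than the other 3 and rose by only 0.87, against 4.41 in litter 4.
Nlrx1-/- litters 1 to 4 had 28, 44, 21 and 29 Ptgs2 reads in vehicle and 275, 558, 103 and 479 after stimulation. In log2 CPM this was -0.28, 0.31, -0.68 and -0.45 in vehicle and 3.01, 4.32, 1.52 and 3.83 in LPS+IFNg. Litter 3 had the lowest level in both conditions, and again the conditions did not overlap. The log2 fold change was 2.57 in WT (SE 0.55, adjusted p = 0.00316) and 3.59 in Nlrx1-/- cells (SE 0.52, adjusted p = 0.000247), a 5.96-fold and a 12-fold rise that exceeded those of 97.5% and 98.1% of all genes. Microglia can also express COX-2. The 8 microglia markers summed to 0.188 to 0.975 TPM in vehicle and 0.540 to 1.75 TPM in stimulated libraries. Ptgs2 itself was also low, at 0.0603 to 0.833 TPM in WT vehicle and 0.982 to 2.52 TPM in WT LPS+IFNg. In Nlrx1-/- libraries it was at 0.31 to 0.627 TPM in vehicle and 1.39 to 9.17 TPM after stimulation. Of the microglia markers only P2ry12 was high enough to test. Its log2 fold changes were 1.78 in WT (adjusted p = 0.0687) and 2.27 in Nlrx1-/- cells (adjusted p = 0.0216). In stimulated litters 1 to 4 it had 15, 24, 24 and 18 reads in WT and 21, 50, 23 and 56 in Nlrx1-/- cells. Its part in the Ptgs2 response was not tested.

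**Figure D2:**
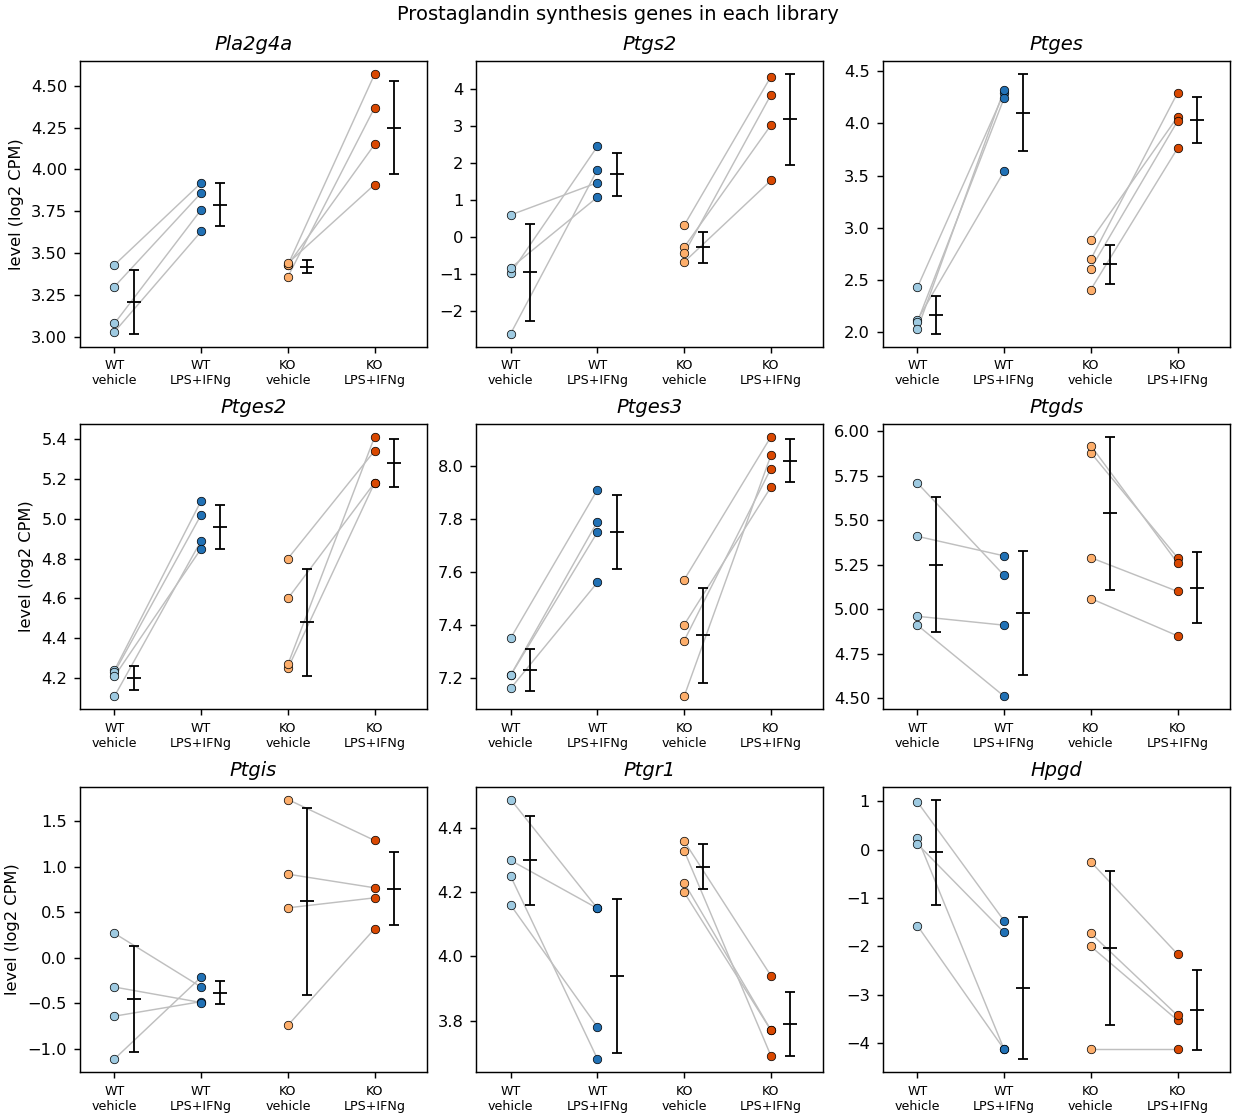
Level of the 9 genes in log2 CPM in each library (points), with gray lines joining the vehicle and LPS+IFNg wells of 1 litter and black marks for mean ± SD of 4 litters. Ptgs2 and Ptges lie higher in every stimulated library than in any vehicle library of the same genotype, whereas Ptgis shows no common direction and Hpgd falls toward the lowest value the table can hold, -4.13.

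Ptges, the synthase that works with COX-2 to make prostaglandin E2, was at 2.12, 2.43, 2.10 and 2.03 log2 CPM in WT vehicle litters 1 to 4 and at 3.54, 4.29, 4.24 and 4.32 after stimulation. Nlrx1-/- litters 1 to 4 were at 2.41, 2.88, 2.70 and 2.61 in vehicle and at 3.76, 4.06, 4.29 and 4.02 after stimulation. Conditions did not overlap in either genotype, and the stimulated means were close, at 4.10 ± 0.37 in WT and 4.03 ± 0.22 in Nlrx1-/- cells. Ptges rose by a log2 fold change of 1.95 in WT (SE 0.15, adjusted p = 2.33e-06) and 1.38 in Nlrx1-/- cells (SE 0.14, adjusted p = 2e-05). It was counted in 135 to 753 reads per library.

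The other prostaglandin E synthases rose less and started higher. Ptges2, a membrane-associated synthase, went from 4.2 ± 0.06 to 4.96 ± 0.11 log2 CPM in WT and from 4.48 ± 0.27 to 5.28 ± 0.12 in Nlrx1-/- cells (SD, n = 4). The log2 fold changes were 0.76 (SE 0.10, adjusted p = 1e-04) and 0.79 (SE 0.09, adjusted p = 6.27e-05), and all 4 litters of each genotype went up. Ptges3, the cytosolic synthase also known as the HSP90 co-chaperone p23, went from 7.23 ± 0.08 to 7.75 ± 0.14 in WT and from 7.36 ± 0.18 to 8.02 ± 0.08 in Nlrx1-/- cells. Its log2 fold changes were 0.52 (SE 0.06, adjusted p = 7.44e-05) and 0.65 (SE 0.06, adjusted p = 1.24e-05). The stimulated libraries of both genes lay above the vehicle libraries in each genotype.

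Ptgds and Ptgis, the synthases of prostaglandin D2 and prostacyclin, were not called higher in either genotype. Ptgds, the lipocalin-type prostaglandin D synthase, was at 4.91, 5.41, 4.96 and 5.71 log2 CPM in WT vehicle litters 1 to 4 and at 4.51, 5.30, 4.91 and 5.19 after stimulation. In Nlrx1-/- litters 1 to 4 it was at 5.29, 5.88, 5.06 and 5.92 in vehicle and at 5.10, 5.29, 4.85 and 5.26 after stimulation. Conditions overlapped in both genotypes, but within each of the 8 litters the stimulated well was lower. The log2 fold change was -0.43 in Nlrx1-/- cells (SE 0.10, adjusted p = 0.00602), and in WT it was -0.28 and missed the threshold (SE 0.10, adjusted p = 0.0517).
Ptgds is also made by oligodendrocytes, and their markers moved with it: of 6 oligodendrocyte markers 3 fell in WT and 4 in Nlrx1-/- cells. Over all genes, 19.8% fell in WT and 23.9% in Nlrx1-/- cells. Mbp, a myelin protein gene, had log2 fold changes of -1.22 and -2.21 in WT and Nlrx1-/- cells (adjusted p = 3.92e-05 and 1.58e-06). The 6 markers summed to 527 to 830 TPM in WT vehicle, 295 to 571 in WT LPS+IFNg, 213 to 679 in Nlrx1-/- vehicle and 147 to 351 in Nlrx1-/- LPS+IFNg, with Mog under 1 TPM throughout. Their part in the change of Ptgds was not tested. Between genotypes in vehicle, edgeR called 0 of the 6 markers (2 at an unadjusted p under 0.05), whose median log2 fold change was -1.42, beside 0.29 for Ptgds (adjusted p = 0.484). Without the litter term the Ptgds change in Nlrx1-/- cells had an adjusted p of 0.106.

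Ptgis, the prostacyclin synthase, was counted in 17 to 36 reads per WT library and 20 to 122 per Nlrx1-/- library. Its log2 fold change was 0.07 in WT (SE 0.38, adjusted p = 0.907) and 0.12 in Nlrx1-/- cells (SE 0.36, adjusted p = 0.813), with 2 litters up and 2 down in each genotype.

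Of the genes of prostaglandin breakdown, Ptgr1 fell in both genotypes and Hpgd in WT. Hpgd, which encodes 15-hydroxyprostaglandin dehydrogenase, had 9, 33, 49 and 73 reads in WT vehicle litters 1 to 4 and 0, 0, 7 and 11 after stimulation. Nlrx1-/- litters 1 to 4 had 7, 9, 29 and 0 reads in vehicle and 1, 1, 6 and 0 after stimulation. All 4 WT litters went down, although the lowest vehicle library and the highest stimulated one overlapped. The log2 fold change in WT was -3.31 (SE 0.78, adjusted p = 0.0067), and without the litter term it was -2.94 (adjusted p = 0.0511). In Nlrx1-/- cells, where litter 4 had 0 reads in both conditions, it was -2.36 and missed the threshold (SE 0.92, adjusted p = 0.0572). These few reads limit how exactly the size of the change is known.

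Ptgr1, a reductase that inactivates prostaglandin metabolites and leukotriene B4, was at 4.16, 4.25, 4.30 and 4.49 log2 CPM in WT vehicle litters 1 to 4 and at 3.78, 3.68, 4.15 and 4.15 after stimulation. Nlrx1-/- litters 1 to 4 were at 4.36, 4.33, 4.2 and 4.23 in vehicle and at 3.94, 3.69, 3.77 and 3.77 after stimulation. Every stimulated library lay below every vehicle library of its genotype. Ptgr1 fell by 0.36 on the log2 scale in WT (SE 0.09, adjusted p = 0.00649) and by 0.50 in Nlrx1-/- cells (SE 0.09, adjusted p = 0.000834). Its reads were split by Salmon between 2 transcript models, with 43.3% to 73.0% in NM_025968.3, and the gene sum is used here.

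**Figure D3:**
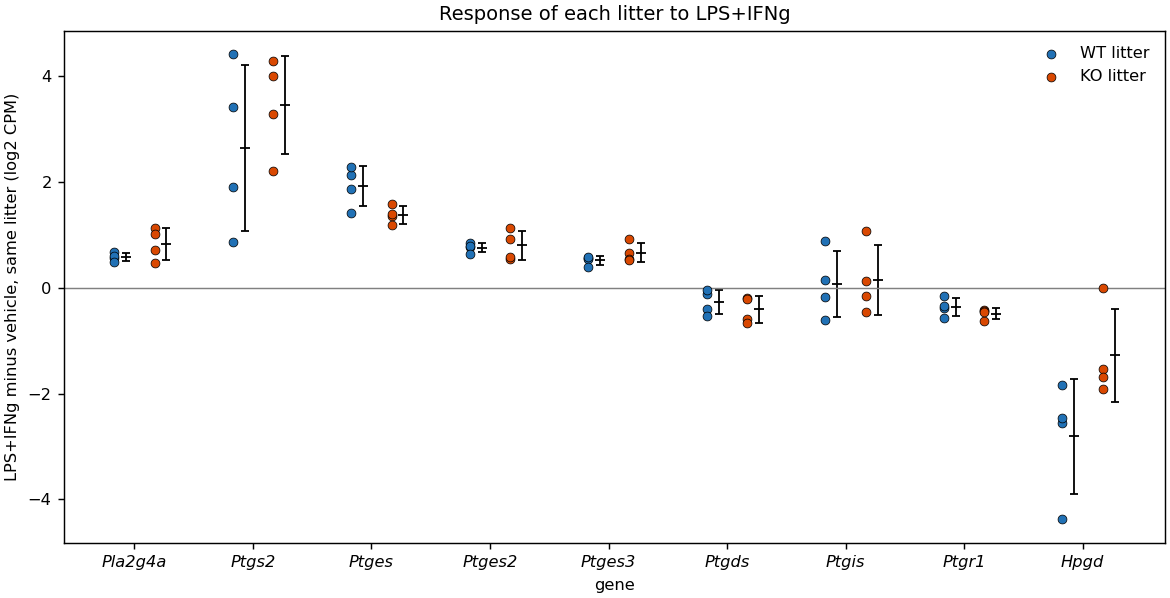
LPS+IFNg minus vehicle in log2 CPM for each litter (points, 4 per genotype), with mean ± SD beside them. Every litter lies above 0 for Pla2g4a, Ptgs2, Ptges, Ptges2 and Ptges3 and below 0 for Ptgds and Ptgr1, and the WT and Nlrx1-/- (KO) points overlap for each of the 9 genes.

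The second question was whether loss of NLRX1 changed these responses or levels. For the difference between the responses, edgeR called 0 of 9 genes higher and 0 of 9 lower, where 0% of all genes were called in either direction. An unadjusted p under 0.05 was reached by 1 of the 9 and by 2478 of all genes, and DESeq2 and limma also called 0 of the 9. That 1 gene was Ptges, whose rise was smaller in Nlrx1-/- than in WT cells by 0.56 on the log2 scale: the difference was -0.56 (SE 0.20, adjusted p = 0.239). Per litter Ptges rose by 1.42, 1.86, 2.14 and 2.29 in WT and by 1.35, 1.19, 1.59 and 1.40 in Nlrx1-/- cells, so that 3 WT litters exceeded all Nlrx1-/- litters and WT litter 1 did not. For Ptgs2 the difference pointed the other way, at 1.01 (SE 0.75, adjusted p = 0.55), within the spread between litters.

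In vehicle, edgeR called 0 of 9 genes higher and 0 of 9 lower in Nlrx1-/- than in WT cells, where 0% of all genes were called in either direction. An unadjusted p under 0.05 was reached by 3 of the 9 (Ptges, Ptges2 and Ptgis) and by 3138 of all genes, and DESeq2 and limma called 0 of the 9. Ptges2 was the one gene of the 9 higher in all 4 Nlrx1-/- libraries (4.25 to 4.80 log2 CPM) than in all 4 WT libraries (4.11 to 4.24), as were 6.02% of all genes. Its log2 fold change was 0.29 (adjusted p = 0.177). Ptges had a log2 fold change of 0.48 (SE 0.18, adjusted p = 0.171), with Nlrx1-/- vehicle libraries from 2.41 to 2.88 and WT ones from 2.03 to 2.43 log2 CPM. Ptgis stood at 0.62 ± 1.03 log2 CPM against -0.45 ± 0.58 in WT, a log2 fold change of 1.29 (SE 0.45, adjusted p = 0.159). Without Nlrx1-/- litter 3, the lowest Nlrx1-/- vehicle value, the Ptgis difference was 1.59 (adjusted p = 0.0275). That fit called 3.59% of all genes higher, against 0% with all litters.

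After LPS+IFNg, edgeR called 0 of 9 genes higher and 0 of 9 lower in Nlrx1-/- cells, where 2.46% of all genes were higher and 2.27% lower. An unadjusted p under 0.05 was reached by 5 of the 9, Pla2g4a, Ptgs2, Ptges2, Ptges3 and Ptgis, and by 4530 of all genes. All 5 were higher in Nlrx1-/- cells. Here the call depended on the method: DESeq2 called 4 of the 9 higher (7.64% of all genes), limma on the deposited log2 CPM called 1 (4.4%), and edgeR without Nlrx1-/- litter 3 called 3 (8.90%). With only the 8 stimulated libraries in the fit, edgeR called 0 of the 9 and 0% of all genes higher.
Ptgs2 had the largest difference, at 3.17 ± 1.22 log2 CPM in Nlrx1-/- against 1.69 ± 0.58 in WT libraries (SD, n = 4), a log2 fold change of 1.7 (SE 0.57, adjusted p = 0.0773). Of the 4 Nlrx1-/- libraries 3 exceeded every WT library, and that of litter 3, at 1.52, lay within the WT range. Without litter 3 the log2 fold change was 2.02 (adjusted p = 0.0154), and DESeq2 gave 1.72 (adjusted p = 0.0239). When WT litter 2, 3 or 4 was left out instead, edgeR called 0 of all genes higher, so neither Ptgs2 nor Pla2g4a passed.
Pla2g4a differed by 0.45 (SE 0.13, adjusted p = 0.0555), and by 0.55 without Nlrx1-/- litter 3 (adjusted p = 0.0121). Ptges2 (5.18 to 5.41 against 4.85 to 5.09 log2 CPM), Ptges3 (7.92 to 8.11 against 7.56 to 7.91) and Ptgis (0.32 to 1.29 against -0.49 to -0.21) did not overlap between genotypes. That is 3 of 9 genes higher with no overlap, against 7.09% of all genes. Their log2 fold changes were 0.30, 0.24 and 1.22 (adjusted p = 0.0931, 0.0978 and 0.0993).
Ptges, with 3.76 to 4.29 log2 CPM in Nlrx1-/- and 3.54 to 4.32 in WT libraries, had a log2 fold change of -0.10 (adjusted p = 0.742). Fibroblast markers, listed because leptomeningeal fibroblasts can express Ptgis and Ptgds, summed to 4.57 to 8.45 TPM in WT and 4.25 to 19.4 TPM in Nlrx1-/- stimulated libraries, with Slc6a13 under 1 TPM in every library. Of 5 tested, edgeR called 0 between genotypes in LPS+IFNg, with log2 fold changes of -0.03 (Col1a1) to 1.37 (Dcn) and 0.0719 as the lowest unadjusted p, and their part in the Ptgis values was not tested. Of 9 astrocyte markers edgeR called 3 lower in Nlrx1-/- cells after LPS+IFNg, where 2.27% of all genes were lower. The log2 fold changes were -2.0 for S100b, -1.33 for Gja1 and -0.62 for Aldoc (adjusted p = 0.0451, 0.0478 and 0.0462). Of all 9, 0 had a positive log2 fold change, and their median was -0.91, beside -0.02 over all genes. Positive values were also found for 0 of 6 oligodendrocyte markers (median -2.42, 0 called) and 0 of 3 tested ependymal markers (median -1.39, 0 called). Of 4 precursor markers 1 was positive (median -0.46, 1 called lower). The part of these markers in the differences above was not tested either. The 3 astrocyte marker calls were close to the threshold. With only the 8 stimulated libraries the log2 fold changes were the same and the adjusted p were 0.0764, 0.0756 and 0.086. When WT litter 2, 3 or 4 or Nlrx1-/- litter 1, 2 or 4 was left out, 0 of the 9 markers were called.

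**Figure D4:**
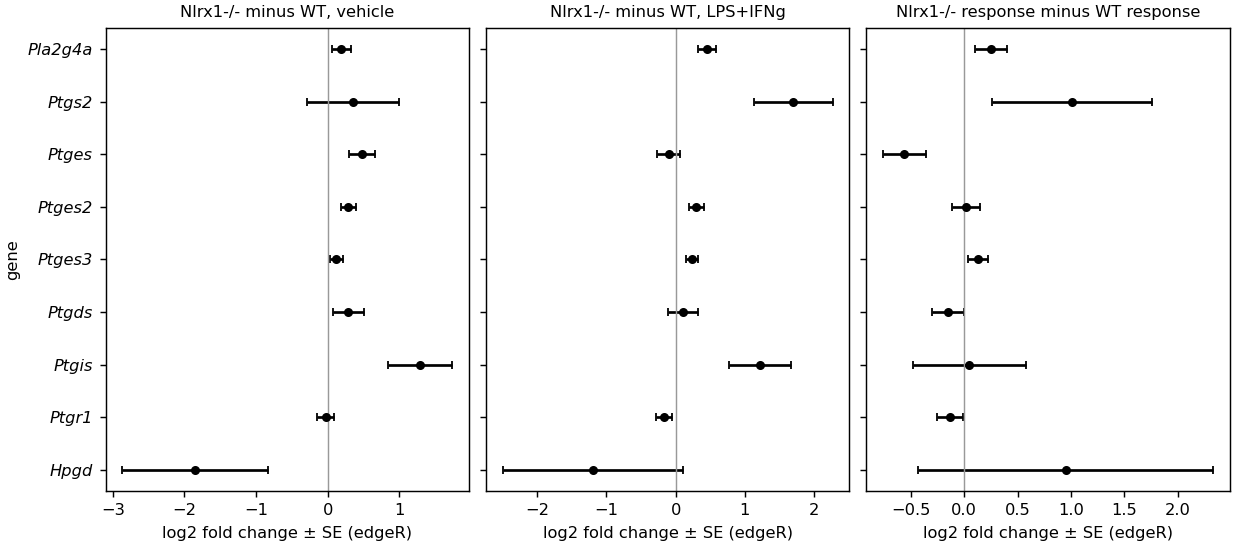
Log2 fold change ± SE by edgeR for the 9 genes, Nlrx1-/- minus WT in vehicle (left), in LPS+IFNg (middle) and for the difference between the responses (right), on separate horizontal scales. None passed an adjusted p of 0.05, Ptgs2 in LPS+IFNg lies at 1.7, and Hpgd has wide errors in each panel.

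Across the 16 libraries, the genes of the log2 CPM table whose levels were most like Ptgs2 were Lrrc28 (Pearson r = 0.969), Sntb1 (0.964) and Jdp2 (0.964). For Ptges they were Atp5pb (0.982), Dtx4 (0.976) and Ndufs3 (0.975), and for Ptgds Nop53 (0.929), Gpx3 (0.885) and Zfp12 (0.879). Within the set, Ptgs2 had an r of 0.90 with Ptges3, 0.87 with Pla2g4a and with Ptges2, and 0.81 with Ptges, and an r of -0.86 with Ptgr1 and -0.76 with Hpgd. Ptgds was less tied to the rest, with r from -0.43 (Ptges3) to 0.45 (Ptgr1). All of these points share the 4 conditions, and they are given as a description.

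Of 21 other genes that supply or recycle arachidonate, 14 could be tested, and 6 rose and 0 fell in WT while 5 rose and 2 fell in Nlrx1-/- cells. Over all genes, 24.3% rose and 19.8% fell in WT, and 25.6% rose and 23.9% fell in Nlrx1-/- cells. For the secreted phospholipase Pla2g3 the reads summed here were only 21.3% to 100.6% of those implied by the deposited table, so the deposited log2 CPM is given first. Its level went from 0.76 ± 0.59 to 2.42 ± 0.76 log2 CPM in WT and from 2.52 ± 1.12 to 3.63 ± 0.62 in Nlrx1-/- cells. By limma on these values Pla2g3 rose 3.16-fold in WT and 2.16-fold in Nlrx1-/- cells (adjusted p = 0.000101 and 0.0016), and the log2 responses differed by -0.55 (adjusted p = 0.424). The edgeR fit on the incomplete reads gave log2 fold changes of 2.48 in WT and 0.87 in Nlrx1-/- cells and a difference of -1.61 (adjusted p = 3.91e-05, 0.00999 and 0.213). In vehicle the genotypes differed by 1.76 by limma (adjusted p = 0.109) and by 2.82 by edgeR (adjusted p = 0.111). Pla2g4c, a relative of Pla2g4a, rose by 1.78 in WT (adjusted p = 0.00461), with 0.81 in Nlrx1-/- cells (adjusted p = 0.106). Its summed reads were 44.6% to 90.7% of those implied, and limma on the deposited values gave 1.47 and 0.75 (adjusted p = 0.00156 and 0.0502). Another secreted phospholipase, Pla2g5, fell by 1.97 in Nlrx1-/- cells (adjusted p = 0.00609), with -1.03 in WT (adjusted p = 0.0947) by edgeR and -1.13 by limma (adjusted p = 0.0283).

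Among 8 other prostanoid enzymes, 7 were tested, and 2 rose and 1 fell in each genotype. These counts were near the shares over all genes, 24.3% higher and 19.8% lower in WT and 25.6% and 23.9% in Nlrx1-/- cells. The aldose reductase Akr1b3, which can act as a prostaglandin F synthase, rose by 0.75 in WT and 0.58 in Nlrx1-/- cells (adjusted p = 1.37e-05 and 6.55e-05). The carbonyl reductase Cbr3 rose by 0.84 and 0.78 (adjusted p = 0.000112 and 0.000156), whereas its relative Cbr1, which reduces prostaglandin E2, had -0.27 and -0.46 (adjusted p = 0.0188 and 0.000784). Hpgds, the hematopoietic prostaglandin D synthase, had at most 17 reads in a library and was not called.

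Of 2 transporters, Slco2a1 rose and Abcc4 was not called by edgeR in either genotype, while limma called Abcc4 lower in WT at -0.19 (adjusted p = 0.0363). Slco2a1, which carries prostaglandins into cells where Hpgd can degrade them, had 0 to 8 reads in the 8 vehicle libraries, 42 to 182 in stimulated WT and 30 to 63 in stimulated Nlrx1-/- libraries. The log2 fold change was 5.15 in WT (SE 0.56, adjusted p = 3.96e-05) and 2.75 in Nlrx1-/- cells (SE 0.50, adjusted p = 0.00105). The difference between the responses was -2.40 (SE 0.76, adjusted p = 0.222). Slco2a1 was called higher in both genotypes, whereas Hpgd was called lower only in WT, with -2.36 in Nlrx1-/- cells (edgeR, adjusted p = 0.0572). Both genes had few reads.

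Of 9 prostanoid receptors only Ptger1, Ptger4 and Ptgfr had enough reads to be tested, and edgeR called 0 of the 3 in either response, with 0.0923 as the lowest unadjusted p. These receptors, Hpgds and Abcc4 were named after their values were seen. Ptger1, an EP receptor for prostaglandin E2, was the highest at 1.40 ± 0.399 TPM in WT vehicle, and Ptger4 ranged from 0.0322 to 2.17 TPM over all libraries. From the neighboring lipoxygenase and leukotriene branch 3 of 12 genes were tested. Cysltr2, a cysteinyl leukotriene receptor, had 0 to 2 reads in the vehicle libraries and 25 to 64 in the stimulated ones, and it was called higher in both genotypes (adjusted p = 0.000118 in WT and 0.000113 in Nlrx1-/- cells). Alox15 fell by 0.77 and Lta4h by 0.20 in Nlrx1-/- cells (adjusted p = 0.00771 and 0.0162), with -0.51 and -0.02 in WT (adjusted p = 0.0538 and 0.771). By limma Alox15 also passed in WT, at -0.50 (adjusted p = 0.0424).

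**Figure D5:**
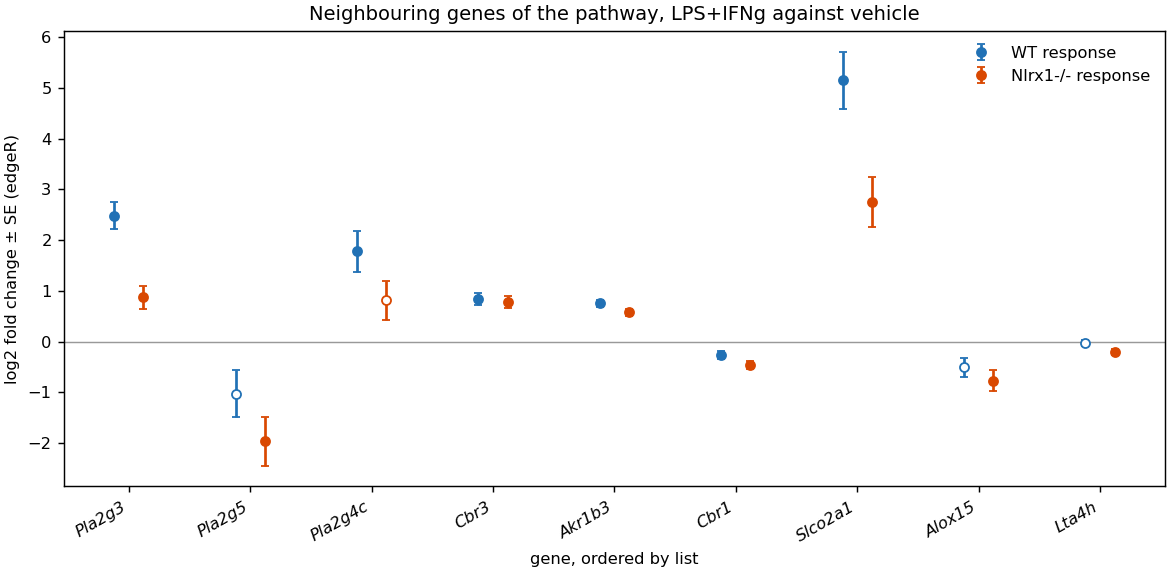
Log2 fold change ± SE by edgeR, LPS+IFNg against vehicle, in WT (blue) and Nlrx1-/- (orange) astrocytes for neighboring genes of the pathway, filled where the adjusted p was under 0.05. Slco2a1 has the largest value in both genotypes, at 5.15 and 2.75, and Cysltr2 is left out because its vehicle libraries held at most 2 reads, while Pla2g3 and Pla2g4c rest on incomplete reads.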

How the data were processed

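Poly-A RNA of 16 primary astrocyte libraries was quantified by the authors with Salmon 1.7.0 on GRCm39. The deposited Salmon files hold expected counts and TPM per transcript. The authors also deposited a signal table of CPM scaled by TMM and its log2 values, made from length-scaled, filtered counts with limma 3.58.1 (processing notes and methods). Depth was 27259420 to 43752903 reads per library, and the reads given beside a gene set its precision. For the 9 genes, a library with 0 reads stood at -4.13 in the log2 table.

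Levels and per-litter responses came from the deposited log2 values. For tests, expected counts were summed per gene over 106440 of 129698 transcripts paired with a RefSeq symbol (96.7% to 97.3% of reads). The sums were fitted without rounding by edgeR 4.0.16 in R 4.3.3, and were rounded for DESeq2. The edgeR fit used a quasi-likelihood test with TMM scaling and offsets for transcript length. That test returns no SE. Each SE given with an edgeR value is the absolute log2 fold change divided by the square root of the test's F statistic. It is approximate, above all for genes with few reads. It kept genes that passed filterByExpr with 10 as its minimum count. Benjamini-Hochberg adjustment was made over all 16070 genes, with a threshold of 0.05. Summed reads were 94.6% to 115.3% of those implied by the deposited table for the 9 genes, but less for some other genes, which is stated beside the named ones. Limma for the other pathway genes and the fit of 8 libraries for astrocyte markers were chosen after seeing the data. Responses and their difference used litter within genotype, following the study's formula. Genotypes were compared without litter terms, because each litter had 1 genotype. For the responses and their difference, the p-values measure the spread between litters of the paired change. For the genotype comparisons, the spread was pooled over all 16 libraries of both treatments. Both wells of a litter entered that fit as if independent, so its p-values do not measure the spread between litters alone. Only the fit of 8 libraries held each litter once. The 2 wells of a litter came from the same mice per the labels, and their residual correlation was 0.07 to 0.35, against a median of -0.05 between litters. No libraries were duplicates (lowest chi-square per degree of freedom 11.4).

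Alternatives were DESeq2 1.42.0, limma 3.58.1 on log2 CPM, other scaling, filtering, offsets, blocks and sample subsets, and leaving out each litter. The fits were also run on simulated counts with built-in changes, as a check of the code. For the genotype comparison these counts held no litter effect, so they could not show how shared litters affect it. The genes, lists and tests were chosen with earlier results of these data known. Named were all genes of the set, Nlrx1, treatment genes, up to 3 called genes per pathway list with the largest change that moved alike in 4 litters, the leading or relevant markers, and the 3 genes most correlated with Ptgs2, Ptges and Ptgds. Tables were made with pandas 2.3.3 and numpy 2.4.6 under Python 3.11.15, and plots with matplotlib 3.10.9. Set tests were not run.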

Additional observations from a re-analysis of the deposited data

Results flagged for a closer look

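Of 54 groups of 4 values examined, 2 held a value far from the other 3, and chance flags about 1 in 20 groups. Ptges in the stimulated library of WT litter 1 stood at 3.54 log2 CPM, below the other stimulated WT libraries at 4.24 to 4.32. Pla2g4a in the vehicle library of Nlrx1-/- litter 4 stood at 3.36 log2 CPM, where the other 3 lay at 3.43 to 3.44. Neither value was left out. Without WT litter 1 the difference between the Ptges responses was -0.73 (edgeR, adjusted p = 0.161).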

How the results depend on the processing

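The 5 genes called up in each response were called up in every alternative. The count called down ranged from 2 to 3 of 9 when 1 litter was left out, in both genotypes. Without the replicate block, that is without pairing wells by litter, 1 gene was called down in WT and 1 in Nlrx1-/- cells (Hpgd in WT had an adjusted p of 0.0511 and Ptgds in Nlrx1-/- cells 0.106). The number of calls between genotypes moved most. In LPS+IFNg, where edgeR called 0 genes higher, DESeq2 called 4, limma 1 and the fit with the replicate number as a block 3, although WT and Nlrx1-/- litters with the same number shared only the number. Leaving out 1 litter gave 0 to 3 higher in LPS+IFNg and 0 to 1 in vehicle, and the upper values came without Nlrx1-/- litter 3, which also moved calls over all genes in vehicle from 0 to 586 higher and 698 lower. The difference between responses gave 0 of 9 in every alternative. Over all genes in LPS+IFNg, DESeq2 called 1228 higher and 1209 lower, limma 735 and 736, and the block 996 and 1171, against 395 and 364. With only the 8 stimulated libraries edgeR called 0 and 1, and with 1 litter left out from 0 to 1451 higher and 1 to 1837 lower: at most 7 and 4 without WT litter 2, 3 or 4 or Nlrx1-/- litter 2 or 4, and 143 and 73 without Nlrx1-/- litter 1. In vehicle DESeq2 called 455 and 280, and for the response difference 111 and 185.

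Values that changed sign were small. For Ptgis they were -0.01 and -0.08 (WT and Nlrx1-/- responses) and -0.07 (difference) without the block, and across left-out litters -0.23 to 0.31 in WT, -0.19 to 0.33 in Nlrx1-/- cells and -0.25 to 0.35 for the difference. Ptges2 in the response difference was -0.01 without length offsets and -0.08 to 0.11 with a litter left out. Ptgr1 in vehicle was 0.04 without WT litter 4, and Ptgds in LPS+IFNg was -0.02 to 0.22 across left-out litters. The cause was not tested. Of 647 single-gene values under an alternative, 612 kept their direction and side of the threshold.

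Precision was limited by 4 litters per genotype and by low reads of Ptgs2, Hpgd and Ptgis.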
